A study of Mus musculus with 9 samples.

Results

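Long noncoding RNA (lncRNA) promoters occupied by both PBRM1 and BRG1 were examined in primary oviductal smooth muscle cells of wild-type mice aged 8 to 12 weeks on day 2 of pregnancy. PBRM1 (BAF180) belongs to PBAF, which is one form of the SWI/SNF chromatin remodeler, and BRG1 supplies ATPase activity to SWI/SNF remodelers. ChIC-Seq was run, a method in which micrococcal nuclease, fused to protein A and held by the antibody, cuts DNA beside the bound protein for sequencing, with 3 libraries for each antibody and 50000 fixed cells per library. All 6 libraries came from wild-type cells that were digested from the oviduct, plated for some hours and fixed, and 3 control IgG samples were not analysed here.

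The regions were selected on called peaks. Peaks of the 6 lists were merged on chromosomes 1 to 19, which gave 81587 regions, and 20687 of them held a peak in at least 2 PBRM1 and 2 BRG1 lists. Among these, 472 had a midpoint within 2 kb of a transcript start of a lincRNA or antisense gene and lay more than 5 kb from every protein-coding transcript start (GENCODE vM21, GRCm38). The 472 regions belonged to 447 genes, of which 24 had more than 1 region. A lincRNA gene was the nearest for 389 regions and an antisense gene for 83. The presence of a peak is therefore what chose the regions and is not a finding about them.

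LncRNAs are transcripts without a protein-coding frame. Some are transcribed chiefly as precursors of small RNAs, so that a microRNA or a small nucleolar RNA is cut from the primary transcript or its introns. Others act near their own gene, and in some cases transcription through the locus rather than the RNA is what matters. SWI/SNF complexes use ATP to slide or evict nucleosomes, and their presence at a promoter is one of the ways by which the start site is kept accessible. PBAF is distinguished from the other SWI/SNF forms by subunits such as PBRM1, whose bromodomains bind acetylated histone tails, while BRG1 is shared by several forms.

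The 6 windows printed here show the kind of sequence under these peaks. Each holds 200 bases of GRCm38 centred on the median summit, read 5′ to 3′ on the strand of the lncRNA, and capitals mark matches on either strand to the promoter motifs described further on. The first is shown because it had the highest mean fold enrichment percentile of all 472 regions. The next pair lies at microRNA precursors, *Snhg6* is a small nucleolar RNA host, *Dnm3os* holds a microRNA cluster, and *Ptgs2os2* has the prostaglandin synthase gene *Ptgs2* as its nearest protein-coding gene.
*AC158605.1*, chr10:82178383-82178582, plus strand: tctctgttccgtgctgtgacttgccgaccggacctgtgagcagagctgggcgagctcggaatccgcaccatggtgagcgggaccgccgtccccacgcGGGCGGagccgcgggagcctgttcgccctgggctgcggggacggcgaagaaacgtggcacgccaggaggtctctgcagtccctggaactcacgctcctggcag
*Gm20732*, chr15:68363294-68363493, minus strand: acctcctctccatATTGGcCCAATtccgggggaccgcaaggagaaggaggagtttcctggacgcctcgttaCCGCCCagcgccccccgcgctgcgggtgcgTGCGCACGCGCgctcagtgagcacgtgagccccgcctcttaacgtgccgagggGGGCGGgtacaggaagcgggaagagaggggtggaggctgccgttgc
*6720427I07Rik*, chr13:48546585-48546784, minus strand: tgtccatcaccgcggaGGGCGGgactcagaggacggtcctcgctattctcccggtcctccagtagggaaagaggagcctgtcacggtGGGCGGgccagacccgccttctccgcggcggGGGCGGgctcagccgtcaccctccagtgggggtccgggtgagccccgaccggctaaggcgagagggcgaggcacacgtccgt
*Snhg6*, chr1:9944058-9944257, minus strand: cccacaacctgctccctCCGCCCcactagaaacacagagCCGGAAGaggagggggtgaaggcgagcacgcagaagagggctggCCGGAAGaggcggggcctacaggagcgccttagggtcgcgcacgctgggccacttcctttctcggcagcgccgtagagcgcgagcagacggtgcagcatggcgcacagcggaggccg
*Dnm3os*, chr1:162217472-162217671, plus strand: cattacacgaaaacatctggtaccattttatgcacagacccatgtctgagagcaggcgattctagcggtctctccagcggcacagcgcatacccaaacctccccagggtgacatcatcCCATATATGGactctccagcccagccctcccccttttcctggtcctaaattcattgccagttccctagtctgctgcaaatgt
*Ptgs2os2*, chr1:150164815-150165014, minus strand: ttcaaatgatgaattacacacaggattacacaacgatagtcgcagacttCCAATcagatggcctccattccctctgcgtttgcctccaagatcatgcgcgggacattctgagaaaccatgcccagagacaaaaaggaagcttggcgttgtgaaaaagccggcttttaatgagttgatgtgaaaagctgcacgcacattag
The first 4 windows held 19 to 21 CpG dinucleotides each. The *Ptgs2os2* window held 8 and the *Dnm3os* window 5.

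The libraries held 18126049 to 23992352 fragments for PBRM1 and 14284532 to 15897724 for BRG1, with 31970 to 39467 peaks per list. Every PBRM1 library was deeper than every BRG1 library, so depth and antibody cannot be told apart in any difference between them. The labels do not say whether the libraries came from separate animals or cultures, and p-values then measure only the spread between these libraries. Peaks within 2 kb of a start were counted at marker genes of the cell type. Of 7 smooth muscle genes, *Acta2*, *Tagln* and *Smtn* had one in all 6 lists, whereas *Cnn1* had none and *Myh11* had one in 1 BRG1 list. *Des* had one in 1 PBRM1 and 3 BRG1 lists, and *Myocd* in 2 lists of each antibody. The epithelial genes *Pax8*, *Ovgp1*, *Foxj1* and *Epcam* and the leukocyte genes *Ptprc* and *Cd68* had none in any list. The endothelial gene *Cdh5* had none either. *Krt8*, *Cdh1*, *Pecam1*, *Kdr* and *Csf1r* had one in 1 to 5 lists. The endothelial gene *Kdr* had the most of these, with 2 PBRM1 and 3 BRG1 lists.

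Occupancy was shared widely but unevenly among the 472 regions. All 6 lists held a peak at 265 regions (56.1%), 120 regions were missed by 1 list and 87 by 2. The share with all 6 lists was 76.5% at the 10040 protein-coding promoters and 46.2% at the 9262 distal regions that passed the same requirement on lists. Distal regions lay more than 5 kb from protein-coding starts and more than 2 kb from lincRNA and antisense starts. PBRM1 replicate 2, the list with the fewest peaks, held a peak at 395 of the 472 regions, and the other lists held 417 to 438. Merged regions had a median width of 732.5 bp, from 240 to 3695 bp.

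The lncRNA promoters with both proteins were a minority of those annotated. A transcript start more than 5 kb from protein-coding starts was present in 5926 autosomal lincRNA and antisense genes, and 445 of these (7.51%) had one of the 472 regions. No list had a peak within 2 kb of such a start at 4473 genes (75.5%). By a looser count, 10851 of 20807 autosomal protein-coding genes (52.2%) had a summit within 2 kb of a start in at least 2 lists of each antibody. That count took any start of a gene and needed no region shared between lists, so the shares are not like for like. The depth of each list limits these counts, and a start without a called peak is not shown to lack the proteins.

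The 2 kb limit on the midpoint kept summits near the annotated starts, so their closeness is given as a description. The median distance was 350.5 bp for summits and 351.5 bp for midpoints, and 279 regions (59.1%) had a summit within 500 bp. Of these, 149 lay upstream of the start and 130 downstream. Counting all regions, 234 summits were upstream and 238 downstream. By annotation, 116 summits lay in an exon of a lincRNA or antisense gene, 159 in an intron of one, 158 between genes and 26 in an intron of a protein-coding gene. The distance did not separate the antibodies. Library medians were 329, 319 and 359 bp for PBRM1 and 325, 358 and 309 bp for BRG1, which overlapped (two-sided exact permutation test, p = 0.7).

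**Figure D1:**
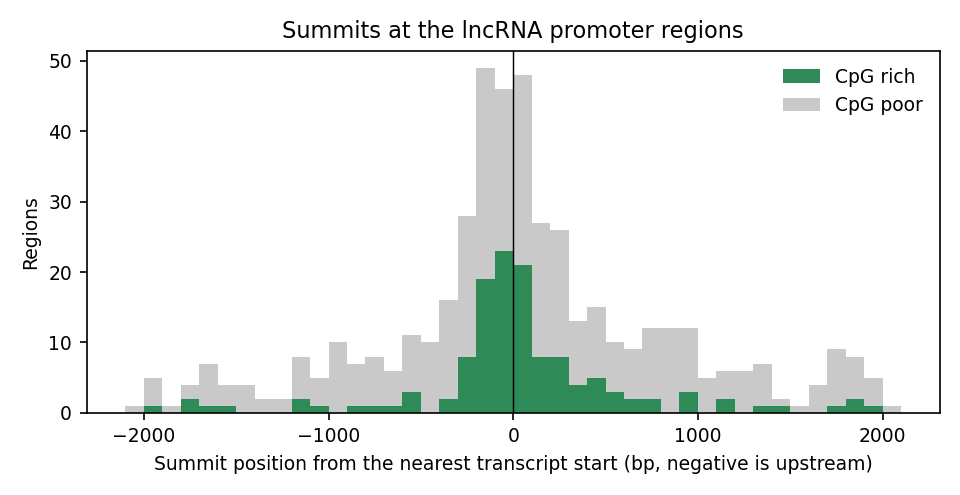
Histogram of summit positions at the 472 lncRNA promoter regions, in 100 bp bins from the nearest lincRNA or antisense transcript start, with negative values upstream. Bars are stacked by CpG content at the summit, and the summits pile up on both sides of the start, with 279 of them within 500 bp.

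Regions on either side of the selection limits are given by their distances. The regions just inside the 2 kb limit were at *Gm44734*, *Gm47071* and *Gm35853*, with midpoints 1972, 1980 and 1981 bp from the start. Just outside were regions at *Mirg* (2017 bp), *AC121603.1* (2031 bp) and *Nr6a1os* (2036 bp). At the 5 kb limit, *Far1os*, *Platr29* and *Gm39158* were retained at 5019, 5370 and 5496 bp from *Far1*, *Ncoa3* and *Mboat4*. *Gm49173*, *Gm49097* and *Chrna1os* were not, at 4558, 4853 and 4958 bp from *Ano6*, *Baalc* and *Chrna1*.

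Fold enrichment, the deposited ratio of the summit pileup to background estimated around the peak, was intermediate at lncRNA promoters. Their medians were 4.55, 4.39 and 4.32 in PBRM1 replicates 1 to 3 and 4.89, 4.76 and 4.94 in BRG1 replicates 1 to 3. At protein-coding promoters the medians were 4.95, 4.73 and 4.59 for PBRM1 and 5.60, 5.41 and 5.83 for BRG1. Protein-coding promoters were thus higher in every library. On the log2 scale the differences of lncRNA from protein-coding promoters were −0.12, −0.11 and −0.09 in the PBRM1 libraries and −0.20, −0.19 and −0.24 in the BRG1 libraries. The mean difference was −0.16, with the same sign in 6 of 6 libraries. A two-sided exact permutation test that flipped signs gave p = 0.03125, which is as low as 6 libraries allow. Peaks were also shorter at lncRNA promoters, with a mean difference of −93.9 bp that was negative in every library, from −121 to −56 bp (same exact permutation test, p = 0.03125). The sizes varied with the setting while the signs held: with only peaks of −log10 q of at least 5 the differences were −0.080 and −45.8 bp, and with pileup per library depth the log2 difference was −0.35.

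Compared with distal regions, the lncRNA promoters were slightly higher in fold enrichment, by an amount that depended on the measure. Distal medians were 4.43, 4.32 and 4.30 for PBRM1 and 4.76, 4.75 and 4.85 for BRG1. LncRNA promoters were higher by a mean of 0.02 on the log2 scale, by 0.00 to 0.04 in single libraries (6 of 6 positive; exact permutation test by sign flips, p = 0.03125). The difference was 0.22 when pileup per library depth replaced fold enrichment, and 0.060 with peaks needed in all 3 lists of each antibody (6 of 6 positive in both; p = 0.03125, exact permutation tests by sign flips). Distal peaks had median lengths of 417, 391.5 and 411 bp for PBRM1 and 378, 365 and 353 bp for BRG1, shorter in every library than the lncRNA promoter peaks (422.5 to 460 bp), a comparison that was not tested. The call on fold enrichment did not hold with only peaks of −log10 q of at least 5, with equal numbers of peaks per list, with regions over 10 kb from protein-coding starts, or without regions rich in repeated sequence. In the last of these the mean was 0.0076, positive in 4 of 6 libraries (p = 0.28125, exact permutation test by sign flips).

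**Figure D2:**
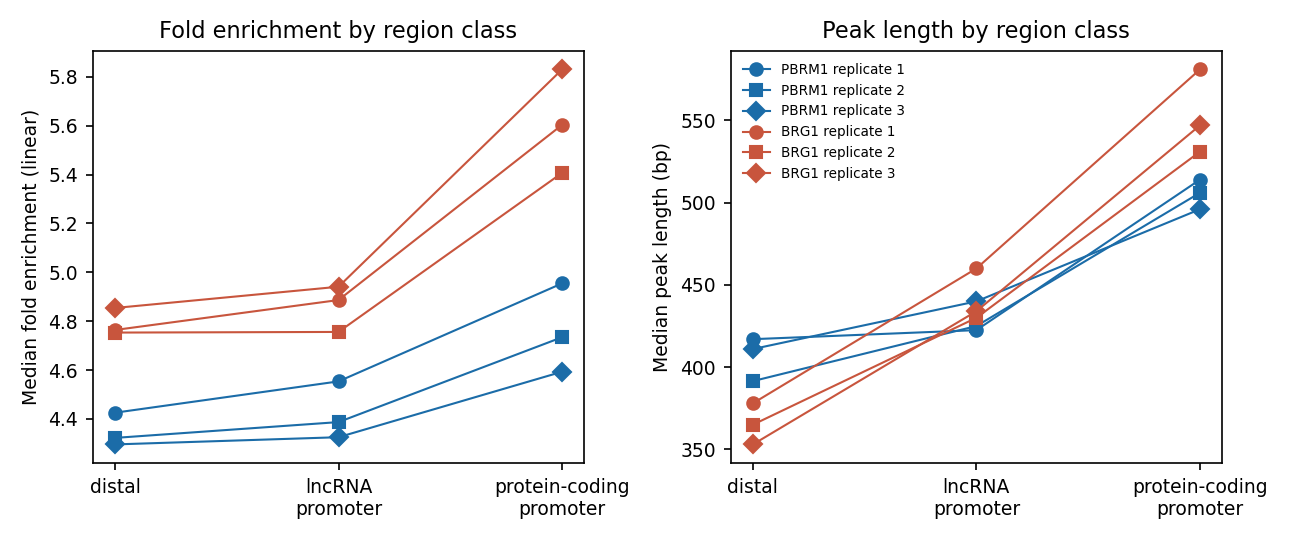
Median fold enrichment on a linear axis (left) and median peak length in bp (right) at distal regions, lncRNA promoters and protein-coding promoters, with 1 line for each of the 6 libraries; neither axis starts at 0. Protein-coding promoters are highest in every library, and fold enrichment at lncRNA promoters lies close to that of distal regions.

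Taken over all regions of both classes, the gap to protein-coding promoters was wider in BRG1 than in PBRM1 libraries. This comparison was chosen after the library values were seen. The gap was −0.207 ± 0.0281 on the log2 scale for BRG1 and −0.106 ± 0.0178 for PBRM1 (SD over 3 libraries each), and the antibodies did not overlap. The two-sided exact permutation test gave p = 0.1, below which a design of 3 against 3 cannot go. In peak length the gap was −112 ± 10.1 bp for BRG1 and −76.2 ± 18.2 bp for PBRM1 (SD over 3 libraries each), also without overlap (p = 0.1 by the same exact permutation test). The part of sequencing depth in this difference was not tested. Between regions of like CpG content, described further on, the antibodies overlapped in the log2 gap.

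CpG content divided the lncRNA promoters. CpG dinucleotides are depleted from most of the mouse genome but kept in CpG islands, which cover the starts of broadly active genes. In 301 bp at the summit, the median ratio of observed to expected CpG was 0.385 at lncRNA promoters, 0.787 at protein-coding promoters and 0.2315 at distal regions. A ratio of at least 0.6, called CpG rich here, was found at 130 lncRNA promoters (27.5%). It was found at 78.0% of protein-coding promoters and 6.64% of distal regions. At the 4473 noncoding genes without a peak, 4.63% of start windows were CpG rich. CpG-rich lncRNA promoters had peaks in all 6 lists at 102 of 130 regions (78.5%), and CpG-poor ones at 163 of 342 (47.7%). Their summits were also nearer to the start, with medians of 172 and 451.5 bp. The CpG shares describe fixed genome sequence, while the list counts and summit distances come from the peaks. None of these differences was tested.

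Fold enrichment followed the same division. Each peak was given a percentile by fold enrichment within its own list, which puts the libraries on one scale. CpG-rich lncRNA promoters had median percentiles of 76.8, 70.6 and 74.1 in PBRM1 replicates 1 to 3 and 79.9, 72.8 and 72.0 in BRG1 replicates 1 to 3. CpG-poor ones had 56.3, 55.3 and 57.04 for PBRM1 and 59.1, 52.7 and 58.3 for BRG1. The CpG-rich medians were higher in all 6 libraries, and the ranges of the CpG-rich and CpG-poor medians did not overlap.

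The gap to protein-coding promoters was smaller between regions of like CpG content, in comparisons added after the values were seen. Among CpG-rich regions the mean log2 difference was −0.047, negative in 5 of 6 libraries (exact permutation test by sign flips, p = 0.09375). Among CpG-poor regions it was −0.020, also negative in 5 of 6 (p = 0.0625, same exact test). In peak length, the mean difference was −51.0 bp among CpG-poor regions, with the same sign in 6 of 6 libraries (p = 0.03125, same exact test). Among CpG-rich regions it was −27.4 bp, negative in 5 of 6, and did not pass (p = 0.0625, same exact test). The antibodies overlapped in the log2 gap in both CpG classes. Among CpG-poor regions it was −0.022, −0.017 and −0.042 for PBRM1 and 0.013, −0.030 and −0.022 for BRG1. Among CpG-rich regions it was −0.006, −0.027 and 0.016 for PBRM1 and −0.025, −0.074 and −0.165 for BRG1. In the length gap the antibodies overlapped among CpG-poor but not among CpG-rich regions. Against distal regions the CpG classes went in opposite directions. CpG-rich lncRNA promoters differed from distal ones by 0.099, positive in 6 of 6 libraries, and CpG-poor ones by −0.017, negative in 6 of 6 (exact permutation tests by sign flips, p = 0.03125 each). The difference between these differences was not itself tested.

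**Figure D3:**
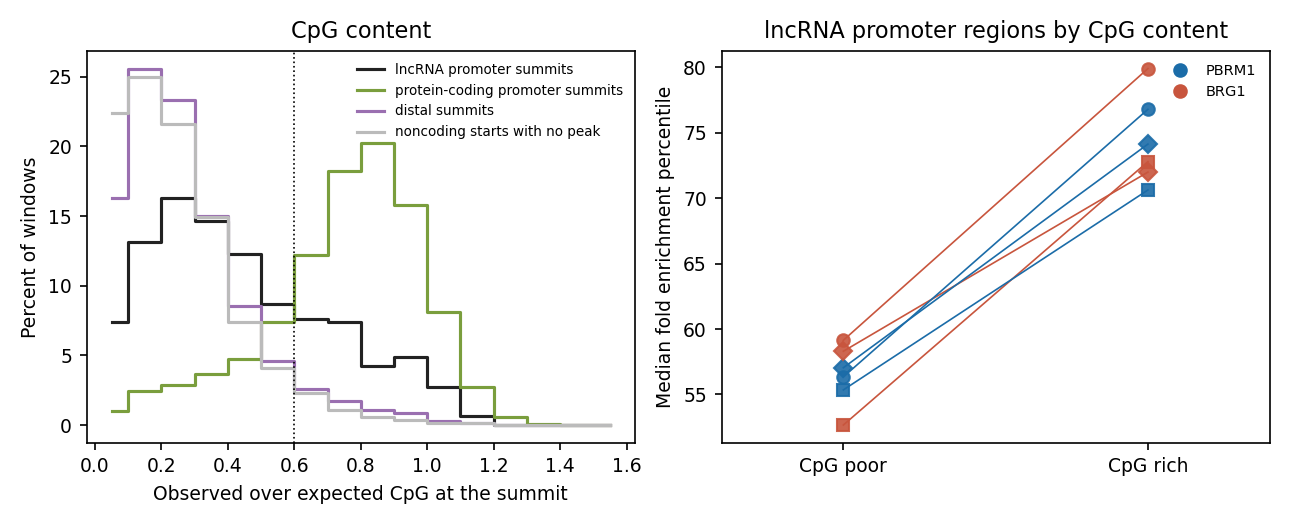
Left, percent of 301 bp windows by their ratio of observed to expected CpG (bins of 0.1) at lncRNA promoters, protein-coding promoters, distal regions and noncoding starts without a peak; the dotted line marks 0.6. Right, median fold enrichment percentile of the 342 CpG-poor and 130 CpG-rich lncRNA promoters, with 1 line for each library and an axis that does not start at 0; all 6 lines rise.

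Sequence motifs other than CTCF placed the lncRNA promoters between the other classes too. The windows were searched on both strands for AP-1 (TGANTCA), ETS (CCGGAAG), SP/KLF (GGGCGG), the CCAAT box (CCAAT), CREB (TGACGTCA), the TATA box (TATAAA), and the CArG box, NRF1 and CTCF motifs. A CArG box can hold a CCAAT or TATAAA match, and otherwise none contains another. AP-1, the motif of the FOS and JUN factors, was in 24.2% of lncRNA promoter windows, against 6.74% at protein-coding promoters and 33.9% at distal regions. SP/KLF, bound by zinc finger factors of GC-rich promoters, was in 27.8%, against 64.0% and 10.6%. ETS was in 6.78%, against 17.0% and 2.34%. Of 32851 RefSeq promoters of 300 bases, 7.81% held AP-1, 35.7% SP/KLF and 8.86% ETS.

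Within the lncRNA promoters, the motifs followed CpG content. AP-1 was in 29.2% of CpG-poor and 10.8% of CpG-rich windows, and SP/KLF was in 14.9% and 61.5%. The CArG box, the site of serum response factor at contractile genes, was in 2.33% of lncRNA promoter windows, close to the 2.36% of distal regions and against 1.37% at protein-coding promoters. The window at *Dnm3os* was among those with one, as its capitals show. NRF1 was in 1.06%, CREB in 1.69%, the TATA box in 7.20% and the CCAAT box in 31.8%. CTCF was in 1.27%, above both the 0.857% at protein-coding promoters and the 1.07% at distal regions. A match is a description of the letters and not evidence of binding.

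The strongest regions were named by a rule on percentiles, as the 10 with the highest mean percentile among those with a peak in all 6 lists. These ranks come from the same peaks that chose the regions and are given as a description. Their fold enrichment ranged from 6.62 to 13.8 in single libraries, and every one of their peaks was above the 96th percentile of its list. Of the 10, 9 were lincRNAs, 9 were CpG rich and 8 had a summit within 500 bp of the start.

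The highest was *AC158605.1* (chr10:82177964-82178912), with fold enrichments of 12.3, 10.9 and 10.7 for PBRM1 and 10.8, 11.4 and 10.9 for BRG1. *Gm26611* on chromosome 9 followed with 10.4, 10.6 and 9.21 for PBRM1 and 10.2, 12.4 and 11.65 for BRG1. On this scale the antibodies overlapped at both, and after each library's median had been subtracted all PBRM1 values of *AC158605.1* were higher (log2 difference of BRG1 minus PBRM1 −0.24 ± 0.15 (SE), limma, adjusted p = 0.448). *Gm10010* (chr6:128200088-128201393), with a mean percentile of 99.5, lay 57146 bp from *Tspan9*, a tetraspanin gene. *Gm20732* (chr15:68363162-68363813), the lncRNA that contains the *Mir30d* gene, had 8.20, 11.1 and 8.12 for PBRM1 and 9.63, 9.23 and 11.9 for BRG1. The nearest protein-coding gene to it was *Zfat*, a zinc finger gene 104631 bp away. *AC125101.1*, near the stearoyl-CoA desaturase gene *Scd3*, was the antisense gene of the 10, with a mean percentile of 98.7.

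Several of these regions lay near genes of multi-copy families. *BC002059* (mean percentile 99.3) was near *Zfp960* and *Gm37494* (98.96) near *Zfp619*, both zinc finger genes. *Gm26611* was near *Trim43c* and *9430037G07Rik* (98.97) near *Trim43a*. *AC110262.3* (99.1) was near *Dcpp3* and *Gm32856* (98.2) near *2610044O15Rik8*. Such families hold near-identical copies, and reads from them cannot always be placed. Words of 31 bases were counted as repeated if they recurred in the genome sequence searched, within the region or elsewhere. Repeated words made up 58.1% of the words in the *Gm26611* region, 56.5% in *9430037G07Rik*, 51.6% in *Gm32856* and 43.0% in *BC002059*. Over 5% of the words were repeated in 5 of the 10 regions, whereas the median of all 472 regions was 0 and 352 regions had none. Fold enrichment at these regions is therefore uncertain. For 6 of the 10 the nearest protein-coding gene had a promoter peak in all 6 lists, and for the other 4 in none.

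Zinc finger genes recurred as neighbors, a pattern that was looked at after the values were seen. The nearest protein-coding gene had a name beginning with Zfp at 22 of the 472 regions (4.66%). This was the case for 1.65% of distal regions and for 2.77% of the 5926 lincRNA and antisense genes with an eligible start. Among the 50 regions with the highest mean percentile and all 6 lists, 9 were near such a gene. This count was not set against the strongest distal regions. *Gm47467*, *E430024I08Rik* and *Gm47469* were neighbors of *Zfp825* on chromosome 13, with mean percentiles of 90.9, 90.6 and 90.1 and with 30.1%, 27.2% and 46.8% repeated words. *Gm6410* near *Zfp958* and *Fbxl12os* near *Zfp846* had 89.8 and 89.6 with no repeated word.

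At the other end were regions where a high pileup gave a low fold enrichment. *Gm26917* (chr17:39843091-39846785) had pileups of 375 to 393 in PBRM1 libraries and 451 to 600 in BRG1 libraries. The median over lncRNA promoters was 18 to 22 in every library. Its fold enrichment was nevertheless 2.48 to 2.84 for PBRM1 and 2.34 to 2.59 for BRG1. *AY036118* (chr17:39847515-39848703) had pileups of 306 to 512 and fold enrichments of 2.14 to 2.37, the lowest of the 472 regions. Both regions overlap *Rn18s-rs5*, an 18S ribosomal RNA-related pseudogene of RefSeq. Ribosomal RNA genes exist in many copies of which the assembly holds few, and local background rises with pileup in a list called without a control. The part of either in the values at these regions was not tested.

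**Figure D4:**
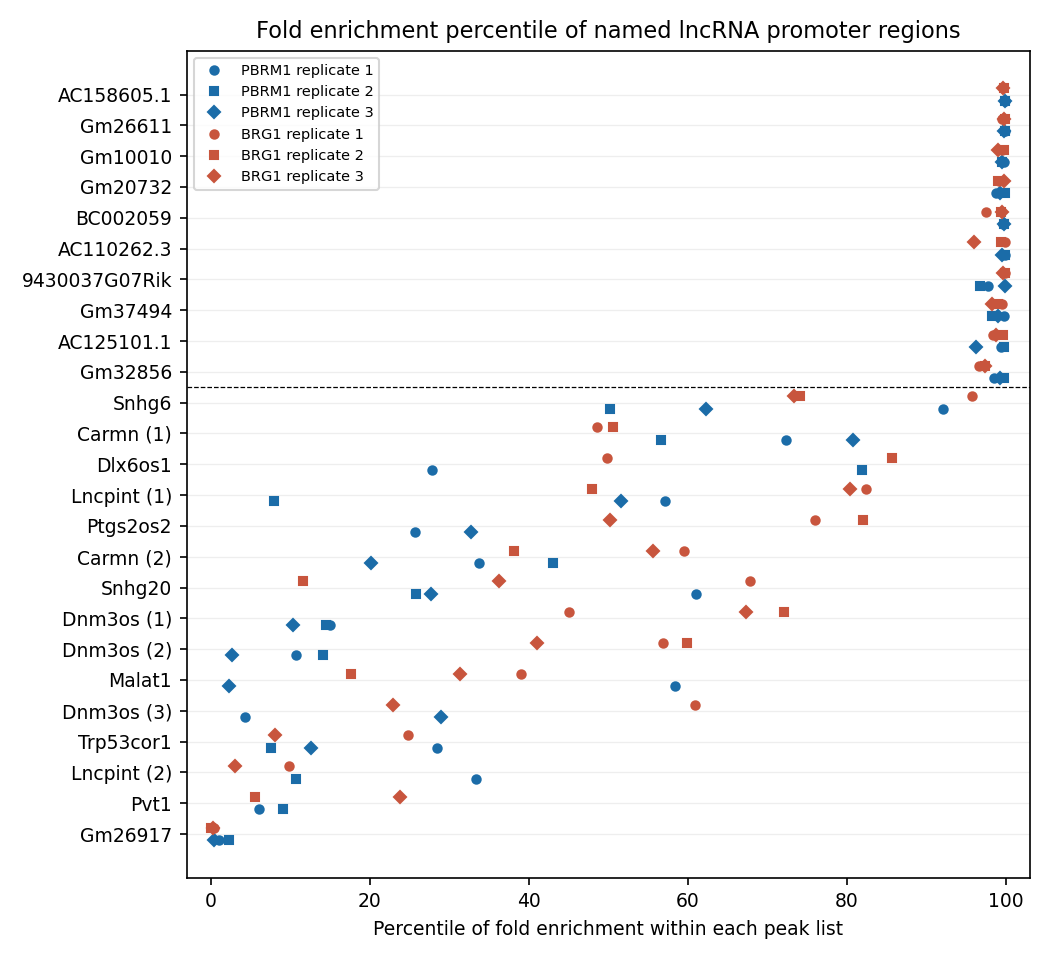
Fold enrichment percentile within each list (horizontal axis) for the 10 strongest lncRNA promoter regions (above the dashed line) and the 15 regions of the named lncRNA lists (below it), with PBRM1 in blue, BRG1 in red and 1 marker shape per replicate number. Numbers in brackets count regions of the same gene by mean percentile, a missing marker means no peak, and all 3 BRG1 markers lie to the right of the PBRM1 markers at the regions of *Dnm3os* numbered 1 and 2.

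Lists of known lncRNAs, drawn up with earlier results of these data known, had 32 genes with a start that could qualify, and 11 of them had a region. By list, 2 of 8 microRNA hosts, 2 of 3 small nucleolar RNA hosts, 5 of 7 nuclear and general lncRNAs, 1 of 7 neighbors of developmental regulators, 1 of 2 lncRNAs of the prostaglandin, muscle and stress list, and 0 of 5 imprinted lncRNAs qualified. The share of all such genes was the 7.51% given earlier. The lists favor well-studied and broadly expressed genes, so nothing is read from the difference. The 5 nuclear and general lncRNAs include *Gm26917*, whose region overlaps *Rn18s-rs5* and has the high pileup and low fold enrichment described earlier.

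MicroRNA precursors among the 447 genes were found from the annotation. Of these genes, 11 contained a microRNA gene on their own strand, 16 microRNA genes in all, and 15 of these matched a mature sequence in the RefSeq table (GRCm38.p6). The mature sequences of 3 loci are shown because their precursors had regions described in this section. Capitals mark the seed, bases 2 to 8, which pairs with target messenger RNAs.
mmu-let-7a-5p: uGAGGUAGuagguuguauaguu
mmu-let-7d-5p: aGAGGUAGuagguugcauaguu
mmu-let-7f-5p: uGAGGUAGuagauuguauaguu
mmu-miR-199a-5p: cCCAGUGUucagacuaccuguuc
mmu-miR-199a-3p: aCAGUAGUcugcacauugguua
mmu-miR-214-3p: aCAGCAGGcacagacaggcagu
mmu-miR-206-3p: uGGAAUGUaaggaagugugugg
mmu-miR-133b-3p: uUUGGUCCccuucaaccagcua
The 3 let-7 sequences share the seed GAGGUAG and come from the *6720427I07Rik* transcript. The miR-199a and miR-214 sequences come from *Dnm3os* and the miR-206 and miR-133b sequences from *Gm28653*, and these 5 have seeds that differ from each other and from let-7.

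The let-7 precursor *6720427I07Rik* had a peak in all 6 lists at a CpG-rich start (chr13:48546344-48546990). The let-7 family restrains growth and is a mark of differentiated cells. Fold enrichment was 5.12, 4.90 and 4.96 in the PBRM1 libraries and 7.78, 6.99 and 8.16 in the BRG1 libraries, which did not overlap. After each library's median had been subtracted, BRG1 was higher by 0.40 ± 0.15 on the log2 scale (SE), which did not pass the test over all regions (limma, adjusted p = 0.195).

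*Dnm3os*, the antisense transcript within *Dnm3* that carries *Mir199a-2* and *Mir214* and is known in mesenchymal cells, was the one gene with 3 regions. The region at its start (chr1:162217393-162217945) had fold enrichments of 3.34, 3.34 and 3.10 for PBRM1 and 4.27, 5.305 and 5.185 for BRG1. The region 1853 bp upstream (chr1:162215502-162216112) had 3.21, 3.32 and 2.765 for PBRM1 and 4.62, 4.79 and 4.24 for BRG1. BRG1 libraries were all higher at both. The log2 differences after centring were 0.38 ± 0.16 and 0.35 ± 0.16 (SE), and neither passed (limma, adjusted p = 0.235 and 0.272). The region between them had peaks in 2 lists of each antibody, at 2.95 and 3.55 for PBRM1 and 4.79 and 3.74 for BRG1. As percentiles, PBRM1 replicates 2 and 3 were at 14.5 and 10.4 at the start, PBRM1 replicate 1 was at 15 and the BRG1 libraries were at 45.1, 72.0 and 67.3.

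*Gm28653*, which contains the muscle microRNA genes *Mir206* and *Mir133b*, had a pair of regions near its start. The one nearer to it had fold enrichments of 3.33, 3.95 and 3.74 for PBRM1 and of 5.15 and 4.22 in BRG1 replicates 1 and 2, with no peak in BRG1 replicate 3. *Carmn*, a smooth muscle lncRNA whose locus produces miR-143 and miR-145, also had a pair of regions. The region nearest to its start had 3.79, 4.00 and 3.36 for PBRM1 and 4.73, 4.17 and 4.71 for BRG1, and the one further upstream was seen in 3 PBRM1 and 2 BRG1 lists. At *2900076A07Rik*, which contains *Mir1839*, BRG1 was at 11.2, 10.1 and 11.4 and PBRM1 at 7.05, 6.94 and 6.72. The centred difference there was 0.44 ± 0.15 (SE; limma, adjusted p = 0.148).

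Small nucleolar RNA hosts are spliced transcripts whose introns give guides for ribosomal RNA modification. *Snhg6* (chr1:9943753-9944838), CpG rich and with its summit 40 bp upstream of the start, had 6.28, 4.15 and 4.34 for PBRM1 and 7.81, 5.42 and 5.54 for BRG1. *Snhg20* (chr11:117076345-117077044) had 4.48, 3.62 and 3.53 for PBRM1 and 5.05, 3.41 and 4.15 for BRG1. The antibodies overlapped at both, with adjusted p-values of 0.736 and 0.799 (limma).

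*Ptgs2os2* (chr1:150164719-150165720) lies 64887 bp from *Ptgs2*, which encodes the prostaglandin synthase COX-2. It had 3.59 and 3.635 in PBRM1 replicates 1 and 3, no peak in PBRM1 replicate 2, and 5.47, 5.89 and 4.56 in BRG1 replicates 1 to 3. Fold enrichment was higher in BRG1 than in PBRM1 lists in general. As percentiles within each list, the PBRM1 values were 25.65 and 32.8 and the BRG1 values 76.0, 82.0 and 50.2, so the 2 PBRM1 values lay below the 3 BRG1 values on both scales. The region could not enter the fit, which needs a peak in all 6 lists, and this difference was not tested. The *Ptgs2* promoter itself had a peak in all 6 lists.

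The remaining lncRNAs of the lists covered a wide range of percentiles. *Trp53cor1*, a p53-induced lncRNA 11902 bp from the cell cycle inhibitor gene *Cdkn1a*, had 3.66, 3.12 and 3.17 for PBRM1 and 3.72 and 3.27 in BRG1 replicates 1 and 3. *Pvt1*, 50574 bp from *Myc*, had peaks in 2 lists of each antibody at 3.04 to 3.77, and its mean percentile was 11.2. *Malat1*, an abundant nuclear RNA, had a region 1048 bp upstream of its start with a mean percentile of 29.7. *Lncpint*, a p53-regulated lncRNA, had regions at different starts, with mean percentiles of 54.6 (6 lists) and 14.3 (4 lists). *Dlx6os1*, next to the homeobox gene *Dlx6*, had peaks in 2 lists of each antibody and a mean percentile of 61.3. Promoter peaks in all 6 lists were present at *Cdkn1a* and *Myc*, and in none at *Dlx6*.

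The last comparison asked whether PBRM1 and BRG1 differed at single lncRNA promoters. Log2 fold enrichment, with each library's median subtracted, was fitted with limma over the 12655 merged regions that every list had called. Of all those regions, 21 were called higher for BRG1 (0.166%) and 29 higher for PBRM1 (0.229%) at an adjusted p below 0.05. Of the 265 lncRNA promoters among them, 0 were called in either direction. An unadjusted p below 0.05 was found at 41 of the 265 and at 2031 of all 12655 regions. The median log2 difference of BRG1 minus PBRM1 was −0.04 at the 265 lncRNA promoters and −0.01 over all 12655 regions. It was −0.06 at distal regions and 0.02 at protein-coding promoters. BRG1 had the higher value at 115 of the 265, and the share over all regions was not counted.

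All 3 BRG1 libraries lay above all 3 PBRM1 libraries at 15 of the 265 lncRNA promoters (5.66%), where 10.0% of all 12655 regions did so. All 3 PBRM1 libraries lay above at 24 (9.06%), where 10.8% of all regions did so. *Gm5444* and *Gm34256*, named after their values were seen, had the smallest p in each direction. *Gm5444* had fold enrichments of 5.83, 5.92 and 6.15 for PBRM1 and 8.895, 9.72 and 11.6 for BRG1 (log2 difference 0.54 ± 0.16, limma, adjusted p = 0.104). One region of *Gm34256* had 6.15, 5.06 and 5.93 for PBRM1 and 4.49, 4.50 and 4.71 for BRG1 (log2 difference −0.53 ± 0.15, limma, adjusted p = 0.101).

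**Figure D5:**
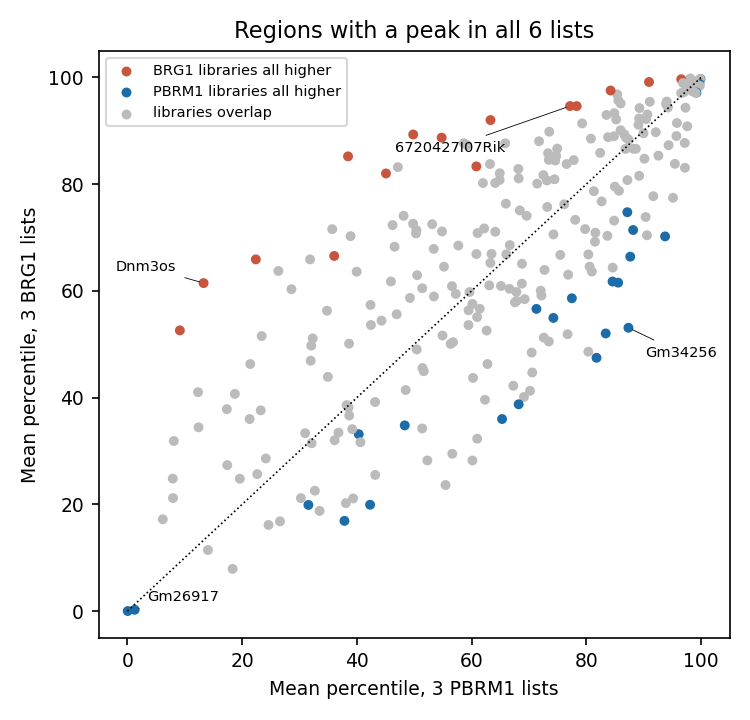
Mean fold enrichment percentile over the 3 PBRM1 lists (horizontal axis) and the 3 BRG1 lists (vertical axis) for the 265 lncRNA promoters with a peak in all 6 lists, with equal values on the dotted line. Colored points are the 15 regions where the centred values of all BRG1 libraries were higher and the 24 where those of all PBRM1 libraries were higher.

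As a set, the lncRNA promoters did not separate the antibodies. The median percentile of their peaks was 61.3 ± 2.21 for PBRM1 and 61.3 ± 2.49 for BRG1 (SD, n = 3 libraries each; two-sided exact permutation test, p = 1.0). Median peak length was 422.5, 425 and 440 bp for PBRM1 and 460, 430 and 434 bp for BRG1, which overlapped (exact permutation test, p = 0.4). Across regions, percentiles of 2 libraries of the same antibody had Spearman correlations of 0.601 to 0.699 and of different antibodies 0.533 to 0.637, over the regions with a peak in both, which share their genome sequence and local background.

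The protein-coding neighbors of the lncRNA promoters had both proteins about as often as the neighbors of distal regions. The 472 regions had 416 different nearest protein-coding genes, of which 282 (67.8%) had a promoter summit in at least 2 lists of each antibody. The share was 64.1% for the 4712 genes nearest to distal regions and 52.2% for all 20807. The median distance to the nearest protein-coding start was 40724.5 bp, and 100 regions were more than 100 kb from one.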

How the data were processed

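Peak lists were analysed for 6 libraries, 3 per antibody; groups came from the sample titles. The authors called narrow peaks from paired-end fragments with MACS 2.2.7.1, per the file headers without a control, at a q cutoff of 0.05 with a 10 kb local background. The submitters' processing notes name cutadapt, Bowtie2 and GRCm38.p5. MACS kept every fragment it was given; whether duplicates or reads with several placements were removed earlier is not given in the sources used here. The deposited pileup is an unscaled signal (coverage), the deposited fold enrichment is a ratio to local background, and the deposited −log10 q was used as a filter. The deposited lists pooled over replicates gave no tested value. Without a control, sites cut in open chromatin regardless of antibody can be called. Lower depth can reduce the number and length of called peaks. BRG1 replicates 2, 3 and 1 had 14284532, 15034230 and 15897724 fragments and 35220, 37417 and 39467 peaks. PBRM1 replicates 2, 1 and 3 had 18126049, 19792451 and 23992352 fragments and 31970, 38147 and 37865 peaks. The part of depth in these numbers was not tested.

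Peaks sharing at least 1 bp were merged, and the strongest peak of each list stood for its region. The members and lists were chosen with earlier results of these data known. Named genes were the 10 regions with the highest mean percentile, members called by limma (none were), members of the lists, and regions next to the limits; hosts of microRNAs, zinc finger neighbors and the regions with the smallest limma p were named after their values were seen. Python 3.11.15, numpy 2.4.6, pandas 2.3.3 and limma 3.58.1 (R 4.3.3, Benjamini-Hochberg) were used, and the limma step was tested on simulated data. Motifs and CpG were read from GRCm38.p6, the same primary assembly.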

Additional observations from a re-analysis of the deposited data

How the results depend on the processing

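The labels share replicate numbers between antibodies but do not say whether the same number marks the same cells. Correlations of deviations between same-numbered libraries were −0.003, 0.0096 and −0.0219. They gave no sign of pairing but cannot show that it was absent. With the replicate block, no antibody difference could pass, since the exact permutation test of 3 pairs cannot go below p = 0.25, and limma called 0 lncRNA promoters in either direction, with 43 calls for BRG1 and 50 for PBRM1 over all regions against 21 and 29 without the block. The number of regions was 472, falling to 219 at −log10 q of at least 5 and 265 when all 3 lists of each antibody were needed, and ranging from 355 to 401 without single libraries. Limma called 0 lncRNA promoters in each direction, but 1 and 1 at −log10 q of at least 5 (60 for BRG1 and 56 for PBRM1 over all regions), 1 for BRG1 and 3 for PBRM1 with pileup scaled by library depth (129 and 287 over all regions), and 20 for BRG1 without centring (1280 over all regions), which leaves in the higher fold enrichment of all BRG1 lists. It called 0 when any library was left out.

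The antibody difference in percentile (0.03055, PBRM1 minus BRG1) was −1.03 with regions over 10 kb from protein-coding starts and ran from −2.68 to 3.43 without single libraries. That in peak length (−12.2 bp) was 10.3 bp at −log10 q of at least 5, 1.17 bp with equal numbers of peaks, and −18.9 to 17.0 bp without single libraries. That in summit distance (5.0 bp) was −1.67 bp at −log10 q of at least 5, −6.33 bp with peaks trimmed around the summit, and −21.2 to 25.0 bp without single libraries. These tests of 3 against 3 or 2 against 3 libraries cannot go below p = 0.1 in the exact permutation test, so they say nothing about stability. The antibodies separated fully, at that limit, in peak length over 10 kb from protein-coding starts (−15.2 bp) and in percentile without BRG1 replicate 1 (3.43).

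The log2 gap to protein-coding promoters (−0.157) was −0.080 at −log10 q of at least 5, −0.353 with pileup scaled by depth, −0.047 among CpG-rich and −0.020 among CpG-poor regions and −0.172 to −0.131 without single libraries, where 5 libraries cannot give p below 0.0625 in the exact permutation test. The length gap (−93.9 bp) was −45.8 bp at −log10 q of at least 5, −57.7 bp with all 3 lists of each antibody, −27.4 bp among CpG-rich regions, where it no longer passed, and −94.2 to −73.8 bp without single libraries. The log2 difference from distal regions (0.02259) was 0.219 with pileup scaled by depth, 0.0601 with all 3 lists of each antibody, 0.0474 with midpoints within 1 kb, 0.0389 with trimmed peaks, 0.099 among CpG-rich regions, 0.03152 at −log10 q of at least 5, 0.0228 with equal numbers of peaks, 0.01189 over 10 kb from protein-coding starts, 0.00757 without regions of over 20% repeated words, −0.017 among CpG-poor regions and 0.027 to 0.044 without single libraries, with 4 of 5 positive without BRG1 replicate 3. The comparisons by CpG class, without repeated words and of the antibodies' gaps were added after the data were seen. The antibody difference in the gap was 0.080 to 0.118 on the log2 scale and 36.1 to 58.2 bp without single libraries, and 0.244 on the log2 scale with pileup scaled by depth. Within either CpG class the antibodies overlapped in the log2 gap. The cause of these changes was not tested beyond what each alternative removes.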

Other observations

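The X chromosome, left out of the selection, had 1362 merged regions, 306 with a peak in at least 2 lists of each antibody, and 6 that met the same rule. They lay at *Gm15247*, *9530027J09Rik*, *Jpx*, *Gm15261* and *Ftx*, the last with a pair of regions. *Jpx* and *Ftx* are lncRNAs of the X-inactivation center. Their mean fold enrichment percentiles were 64.4 for *Jpx* and 64.2 and 63.9 for *Ftx*, and *Gm15247* had the highest at 94.7.

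Regions next to a qualifying start but with peaks for mostly 1 antibody were few among those with all lists of one. Near lincRNA and antisense starts, 14 regions had a peak in all 3 PBRM1 lists and no BRG1 list, and 22 had a peak in all 3 BRG1 lists and no PBRM1 list. Both counts rest on a q cutoff, and a list without a call is not shown to lack the protein.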
